A study of Mus musculus with 30 samples.

Results

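Small intestinal CD34+ fibroblasts (FB) were compared with colonic CD90+ FB, 3 libraries against 3, to describe what separates the most similar pair of populations sorted from both organs. The 6 libraries are those whose sample titles mark them as these sorts, out of 30 libraries in the series. Across 17555 genes, the mean log2 expression of small intestinal CD34+ FB had a Pearson correlation of 0.951 with that of colonic CD90+ FB, 0.947 with colonic Fgfr2+ FB and 0.933 with colonic CD81+ FB. These values are across genes, which are not independent replicates, and are given as a description.

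The study sorted mesenchymal stromal cells from the lamina propria of the small intestine and colon of mice and sequenced their RNA in bulk. All 6 libraries came from untreated adult C57BL6/Nrj mice (C57BL/6Nrj in the paper's spelling) of 8 to 10 weeks, with no engineered allele named. Mice of both sexes were used in the study, and the sex behind each library is not stated. The study describes sorting the subsets of both organs from the same animals, so that the 2 groups may share mice, but which libraries do is not stated and the main test treats all 6 as independent. The small intestinal gate took cells without ESAM-1 that carried CD34 and an intermediate amount of PDGFRα (PDGFRα int). The colonic gate took cells without ESAM-1 that carried CD34 and CD90 and a high amount of podoplanin (PDPN hi). Total estimated counts were 11729938, 11930055 and 9432531 in small intestinal replicates 1, 2 and 3, and 19096945, 15840424 and 14456220 in colonic replicates 1, 2 and 3.

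The gates limit what the comparison can show. The small intestinal sort holds both Igfbp5+ FB and CD81+ FB, for which no separate libraries were made, whereas in the colon CD81+ FB were sorted apart from CD90+ FB. Organ and gate therefore change together, and their parts in any difference cannot be told apart in these 6 libraries. Tissue handling also differed with organ. Peyer's patches, muscularis and epithelium were removed from both, but DTT was used in the first wash of the colon only, and digestion was under shaking for the small intestine and with a magnetic stirrer for the colon. RNA was amplified as whole transcriptome before library construction and read as single 50-base reads without strand information, which were assigned to transcripts by kallisto.

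Fibroblasts of the lamina propria lay down the extracellular matrix and release the Wnt, R-spondin and BMP proteins, and the secreted inhibitors of these, that guide the epithelium from crypt base to surface. CD34-bearing fibroblasts lie at and below the crypts and around vessels in the submucosa, and those that carry Grem1 and R-spondins are known for support of the stem cells. Mesenchyme also keeps the pattern of Hox transcription factors that was set along the gut in the embryo, and so records its position.

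Levels are given below as CPM, each library's counts brought to the same total after TMM normalization over the 30 libraries, and differences as log2 fold changes, small intestine minus colon, with the standard error (SE). Where no other sort is named, levels in the colon are those of CD90+ FB. Of 15588 genes tested, 544 (3.49%) differed between the populations at a Benjamini-Hochberg adjusted p below 0.05 in edgeR's quasi-likelihood test and an absolute log2 fold change above 1.5, and these are the genes described as higher or lower. Small intestinal CD34+ FB had the higher level in 325 of the genes tested (2.08%), and colonic CD90+ FB in 219 (1.4%). The 3 libraries of a population all lay on the same side of the 3 of the other in 4715 genes tested (30.2%), among them all 544. In 63 of the 544 no colonic library had more than 3 counts, and in 21 no small intestinal library had. In bulk RNA, fewer cells that express a gene and less RNA per cell cannot be told apart, and this holds for every difference that follows. The median log2 fold change of all genes tested was −0.05.

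The counts depend on the libraries left out and on the sorts in the fit. The 544 fell to 295, 293 and 323 when small intestinal replicate 1, 2 or 3 was left out. Against the mean of colonic CD90+ FB and CD81+ FB 192 genes were called, and with all 30 libraries in the model 62. That mean weights both sorts equally on the log scale, and the share of CD81+ FB in the small intestinal sort is not known. The added libraries also enter the estimated spread, and the part of this in the lower counts was not tested. Calls named below that are lost in these fits are listed with the alternatives. An exact permutation test on 3 against 3 libraries cannot go below p = 0.10, so all tests here rest on spreads estimated across genes.

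Of the genes of the sorting proteins only that of CD90 was called. *Thy1*, which encodes CD90, was at 1.51, 2.52 and 5.98 CPM in the small intestinal libraries and 254, 175 and 160 CPM in the colonic ones. The lowest colonic library was far above the highest small intestinal one, and the log2 fold change was −5.90 (adjusted p = 4.17e-05, SE 0.433). The colonic cells were gated on CD90, so this difference cannot be read apart from the sort. Colonic sorts gated without CD90 were also above the small intestine. CD81+ FB had 124, 115 and 59.4 CPM of *Thy1*, and Fgfr2+ FB had 29.5, 23.8 and 27.1 CPM. The part of the gate in the difference was not tested. *Cd34*, on which both sorts were gated, was at 625 ± 61.5 CPM (SD, n = 3) and 574 ± 76.5 CPM, and did not pass the test (adjusted p = 0.718). *Pdgfra*, which encodes the growth factor receptor of the small intestinal gate, was at 819 ± 64.8 and 654 ± 131 CPM, and *Pdpn*, which encodes podoplanin, at 40.3 ± 4.77 and 60.6 ± 3.69 CPM. Neither passed the test. *Esam* had at most 7 counts in any of the 6 libraries, and *Epcam* had 0 in all of them. *Igfbp5*, the name gene of the pericryptal cells in the small intestinal sort, was at 1085 ± 133 and 1263 ± 248 CPM (adjusted p = 0.519).

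*Cd81*, which encodes the tetraspanin used to set the CD81+ FB apart, varied between the libraries of a population. The small intestinal libraries had 174, 103 and 86.2 CPM and the colonic ones 17.8, 12.1 and 64.5 CPM. The groups did not overlap, but colonic replicate 3 lay near the small intestinal range, and the log2 fold change of 1.93 (SE 0.549) missed the threshold with an adjusted p of 0.0572. Without colonic replicate 3 it was 3.02 (adjusted p = 0.0022), and with all 6 libraries it was called with the replicate block (adjusted p = 0.0106), no low-count filter (0.0159) or 10 counts required in every library of a population (0.0427). *Pi16*, a marker of adventitial fibroblasts, was likewise highest among the colonic libraries in replicate 3, at 28.7 CPM against 10.6 and 4.35 CPM, and at 35.6, 33.7 and 15.9 CPM in the small intestine, so that its groups overlapped. Without colonic replicate 3 it was called (log2 fold change 1.93, adjusted p = 0.0439).

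The Hox genes divided the populations by their place in the clusters. Hox genes are numbered by paralog group from 1 to 13, in the order in which they lie along each chromosome, and the high numbers are used towards the tail end of the body. Of 39 Hox genes, 31 were tested, of which 12 were higher in small intestinal CD34+ FB and 9 in colonic CD90+ FB, with a median log2 fold change of 1.35. Split at a point chosen after the values were seen, groups 1 to 8 held 21 of the genes tested, of which 12 were called toward the small intestine and 0 toward the colon. Groups 9 to 13 held 10, with 9 called toward the colon and 0 toward the small intestine. The exception was *Hoxc9*, at 7.26, 15.7 and 8.44 CPM in the small intestine against 17.8, 18.5 and 11.3 CPM in the colon (adjusted p = 0.37).

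*Hoxa13* (chr6:52257694-52260880, GRCm38) had 0 counts in all 3 small intestinal libraries and 44.9, 54.6 and 47.8 CPM in the colonic ones. *Hoxd13* (chr2:74668310-74671599) likewise had 0 counts in the small intestine and 46.5, 44.2 and 42.4 CPM in the colon. Both were thus detected in every colonic library only, at levels at least 170-fold and at least 154-fold above what 3 counts per library would give (adjusted p = 1.64e-05 for each). *Hoxa11*, at 33.4, 18.2 and 25.6 CPM in the colon and 0 counts in the small intestine, was at least 89.3-fold higher. *Hoxd11*, which was not at 0 in the small intestine, was at 0.342 ± 0.115 CPM there and 33.9 ± 8.07 CPM in the colon, a log2 fold change of −6.58 (adjusted p = 1.64e-05, SE 0.407). *Hoxc10* was at 5.52 ± 1.36 CPM in the colon, with 0 counts in the small intestine.

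In groups 1 to 8 the called genes were all higher in the small intestine. The other 9 were not called, and among them *Hoxd8* (7.39 ± 1.2 and 14.6 ± 10.2 CPM) and *Hoxd4* (0.354 ± 0.231 and 0.595 ± 0.205 CPM) had log2 fold changes of −0.99 and −0.74. *Hoxc8* (chr15:102990607-102994111) was at 57, 54.3 and 83.5 CPM in the small intestine against 3.48, 0.724 and 0.896 CPM in the colon. Every small intestinal library was above every colonic one, with a log2 fold change of 5.21 (adjusted p = 3.38e-04, SE 0.531). *Hoxc5*, with 3, 2 and 0 counts in the colonic libraries, was at 19.4 ± 2.74 CPM in the small intestine, at least 113-fold higher. *Hoxc4* was at 48 ± 18.4 and 2.27 ± 0.347 CPM, and *Hoxb3* at 62.2 ± 16 and 9.48 ± 5.49 CPM. *Hoxb7* had 53, 58 and 29 counts in the small intestine and 0 in every colonic library. *Hoxc9* and *Hoxc10* (chr15:102966796-102971893) lie beside *Hoxc8* on chromosome 15, so that the change of direction fell within a single cluster.

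**Figure D1:**
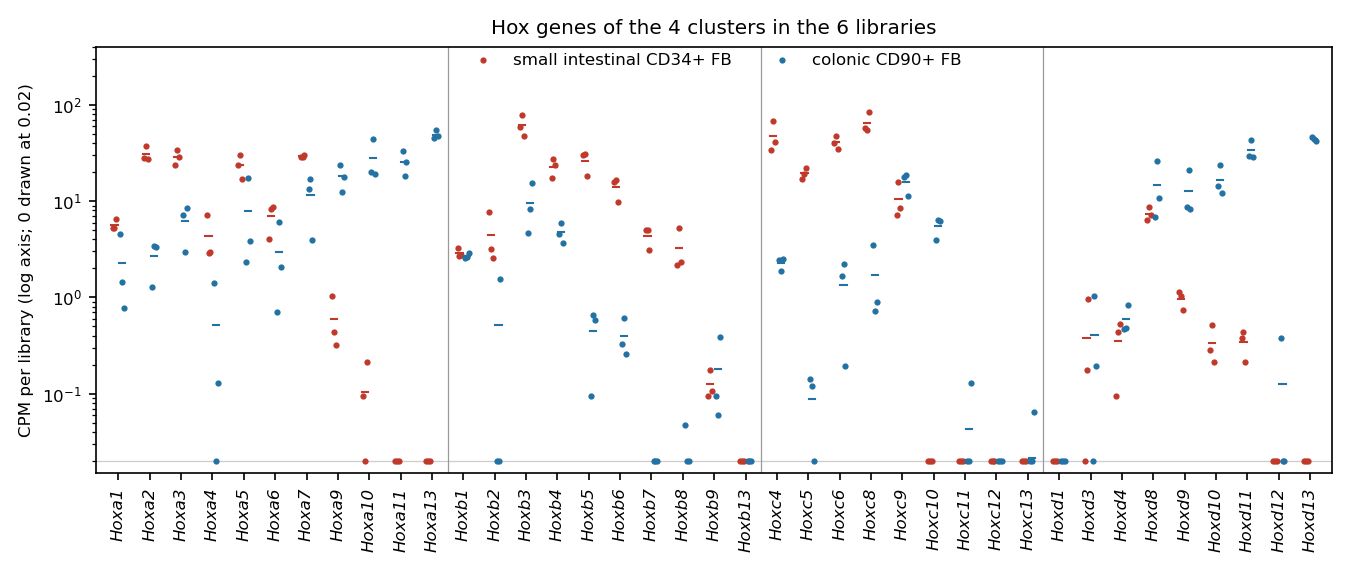
Level in CPM (log axis, values of 0 drawn at 0.02) of the Hox genes of the 4 clusters in each library of small intestinal CD34+ FB (red) and colonic CD90+ FB (blue), with a dash at each mean of 3. Within each cluster genes run from low to high paralog group, and *Hoxa13* and *Hoxd13* are at 0 in the small intestine and at 49.1 and 44.4 CPM on average in the colon.

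Other transcription factors of position and mesenchyme were called more often toward the colon. Of 44 listed, 38 were tested, and 1 was higher in the small intestine and 5 were in the colon (15.8% called, median log2 fold change −0.25). *Isl1* (chr13:116298281-116309689), a LIM homeobox factor of hindlimb and heart precursors, had 0, 0 and 1 count in the small intestine and 49.5, 55.9 and 26 CPM in the colon. It was detected in every colonic library and was at least 152-fold higher there (adjusted p = 2.18e-05). *Pitx1*, a homeobox factor that specifies the hindlimb, was at 5.47, 6.87 and 9.19 CPM in the small intestine against 69.3, 53.1 and 67.6 CPM in the colon, a log2 fold change of −3.15 (adjusted p = 9.22e-05, SE 0.262). It was thus low but present in each small intestinal library. *Twist1*, a mesenchymal bHLH factor, had at most 1 count in the small intestine and 7.39, 2.29 and 8.25 CPM in the colon. *Msc* (higher in the small intestine) and *Foxl1* and *Nr2f1* (higher in the colon) each lost their call when single libraries were left out, with an adjusted p of 0.106 for *Msc* (log2 fold change 1.62) and 0.194 for *Nr2f1* (−1.83) without small intestinal replicate 2, and 0.0869 for *Foxl1* (−3.35) without small intestinal replicate 3. The call of *Msc* was also lost without small intestinal replicate 1 or 3 or colonic replicate 1, that of *Nr2f1* without any library but colonic replicate 3, and that of *Foxl1* without small intestinal replicate 1. *Tcf21*, a bHLH factor of visceral fibroblasts, was at 300 ± 28.7 and 357 ± 39.3 CPM and *Osr1* at 167 ± 31.1 and 314 ± 114 CPM, and neither was called.

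Among the largest differences towards the small intestine was that of *Cyp1b1* (chr17:79701537-79715061), a cytochrome P450 whose transcription the aryl hydrocarbon receptor can induce. It was at 105, 117 and 61.9 CPM in small intestinal CD34+ FB, and none of the 3 colonic CD90+ FB libraries had a count. The level was at least 551-fold higher in the small intestine (adjusted p = 1.64e-05). The receptor gene itself, *Ahr* (chr12:35497974-35535038), was at 9.53, 8.52 and 9.94 CPM in the small intestine against 69.3, 60.5 and 67.7 CPM in the colon. The libraries within each population lay close together, and the log2 fold change was −2.82 (adjusted p = 4.17e-05, SE 0.208). *Tiparp*, a further gene that the receptor can induce, was also higher in the colon, at 62 ± 22.5 CPM against 14.9 ± 3.31 CPM, a log2 fold change of −2.07 (adjusted p = 0.00277, SE 0.302). *Arnt*, which encodes the partner with which the receptor binds DNA, was at 164 ± 12.5 and 140 ± 18.6 CPM and did not pass the test. Of the 9 genes listed for this receptor 7 were tested, and 1 was higher in the small intestine and 2 were in the colon, with a median log2 fold change of −0.09. *Cyp1b1* and *Tiparp*, which are both known targets, thus differed in opposite directions.

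The core of the receptor's binding element is GCGTG, and it was searched on both strands (CACGC on the other) in the 250 bases before the start of each gene, in promoters taken from RefSeq (GRCm38.p6). Of the 9 genes listed 7 had a promoter there, and 5 of these held a match, whereas 9250 of all 32851 promoters did (28.2%). A match is a description of the letters and does not show binding. The promoters of the pair of targets that differed in opposite directions are shown for that reason, with the match in capitals, *Cyp1b1* at chr17:79715062-79715311 on the minus strand and *Tiparp* at chr3:65528197-65528446 on the plus strand, each with 1 match.
Cyp1b1: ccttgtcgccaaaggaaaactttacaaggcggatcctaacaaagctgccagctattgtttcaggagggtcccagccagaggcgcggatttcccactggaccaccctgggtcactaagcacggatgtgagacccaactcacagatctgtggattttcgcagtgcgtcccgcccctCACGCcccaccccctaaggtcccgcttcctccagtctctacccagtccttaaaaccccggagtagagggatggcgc
Tiparp: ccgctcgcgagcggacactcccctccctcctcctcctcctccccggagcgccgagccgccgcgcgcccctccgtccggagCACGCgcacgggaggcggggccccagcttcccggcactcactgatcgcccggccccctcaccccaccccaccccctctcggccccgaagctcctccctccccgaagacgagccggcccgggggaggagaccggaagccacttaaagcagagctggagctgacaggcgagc

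Genes of vitamin A handling were mostly higher in the small intestine where they differed. Of 24 listed 18 were tested, 4 were higher in the small intestine and 1 was in the colon, and the median log2 fold change was 0.54. *Lrat*, the enzyme that esterifies retinol for storage, was at 56.6, 101 and 142 CPM in the small intestine against 2.45, 4.16 and 1.98 CPM in the colon. All small intestinal libraries lay above all colonic ones, by a log2 fold change of 5.12 (adjusted p = 7.39e-05, SE 0.415). *Rbp4*, the carrier that transports retinol in blood, went the other way, with 1.24 ± 0.423 CPM in the small intestine against 24.9 ± 9.26 CPM in the colon (log2 fold change −4.32, SE 0.438). *Aldh1a2*, which makes retinoic acid, was at 433 ± 38.7 and 178 ± 49.7 CPM with an adjusted p of 0.0049. Its log2 fold change of 1.28 was below the fold threshold, but it was called against the mean of colonic CD90+, CD81+ and Fgfr2+ FB. The calls of *Adh1* and *Rxra*, both higher in the small intestine, were lost when 1 library was left out, with log2 fold changes of 1.28 and 1.49 without small intestinal replicate 1. Both were also lost without colonic replicate 1 or 3, *Adh1* without small intestinal replicate 2 and *Rxra* without small intestinal replicate 3.

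Wnt and R-spondin genes differed in both directions. Of 23 Wnt and R-spondin genes 11 were tested, and 4 were higher in the small intestine and 3 were in the colon (median log2 fold change 0.29). *Wnt4*, a Wnt of the non-canonical kind, was at 8.39, 11.1 and 11.5 CPM in the small intestine against 80, 103 and 161 CPM in the colon. The ranges were far apart, with a log2 fold change of −3.48 (adjusted p = 1.11e-04, SE 0.3). *Wnt2*, a ligand of the canonical pathway, had 1, 2 and 4 counts in the small intestinal libraries and 25.5, 5.37 and 8.32 CPM in the colonic ones (adjusted p = 0.00213). *Wnt9a* was at 16.3 ± 4.23 CPM in the small intestine against 0.493 ± 0.497 CPM in the colon, a log2 fold change of 4.98 (adjusted p = 0.00217, SE 0.694), whereas colonic CD81+ FB had 32.7, 44.3 and 17.3 CPM. *Wnt2b*, which signals to the epithelial stem cells, was abundant in both, at 591 ± 80 and 483 ± 89.3 CPM (adjusted p = 0.382).

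The R-spondins amplify Wnt signals at the stem cell. Those tested, *Rspo1*, *Rspo2* and *Rspo3*, were higher in the small intestine, and *Rspo4* was not tested. *Rspo3* was at 97.1, 95.6 and 81.5 CPM in small intestinal CD34+ FB and 4.66, 20.3 and 23.1 CPM in colonic CD90+ FB. *Rspo1* was at 13.9, 25 and 11.5 CPM against 0.847, 2.47 and 0.448 CPM, and *Rspo2* at 29.3, 16.2 and 20.9 CPM against 0, 0.121 and 2.24 CPM. In none of the 3 did the groups overlap, and the log2 fold changes were 2.50 (adjusted p = 0.0104, SE 0.472), 3.73 (adjusted p = 0.00559, SE 0.621) and 4.85 (adjusted p = 0.0186, SE 1.04). *Rspo2* was no longer called without small intestinal replicate 1, 2 or 3, with log2 fold changes of 4.58, 5.04 and 4.89 and adjusted p values of 0.0852, 0.0645 and 0.0567. *Rspo3* was not called without small intestinal replicate 2 when genes with 6 counts in only 2 libraries were also tested (adjusted p = 0.0525), a filter added after the data were seen. In colonic CD81+ FB *Rspo3* ranged from 9.51 to 4424 CPM over the 3 libraries and *Rspo1* from 1.45 to 66.7 CPM. The direction of the *Rspo3* difference reversed against the mean of colonic CD90+ and CD81+ FB (log2 fold change −0.77), a mean that includes replicate 3 of the CD81+ FB at 4424 CPM, while the other CD81+ libraries, at 9.51 and 41.7 CPM, were below every small intestinal one.

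Secreted inhibitors of Wnt differed in both directions too. *Dkk2* (chr3:132085292-132180304), which blocks the LRP co-receptors, was at 304, 229 and 182 CPM in the small intestine against 3.58, 3.38 and 3.01 CPM in the colon. The colonic libraries were almost equal and far below, with a log2 fold change of 6.15 (adjusted p = 3.50e-06, SE 0.256). *Sfrp2* (chr3:83766321-83774316), a secreted Frizzled-related protein that binds Wnts, had the reverse pattern, with 0.283, 0.261 and 0.427 CPM in the small intestine against 78.3, 45.4 and 63.1 CPM in the colon. Its log2 fold change was −7.57 (adjusted p = 4.91e-06, SE 0.375). *Sfrp1*, of the same family, was at 7751 ± 1774 CPM in the small intestine against 1976 ± 527 CPM in the colon, a log2 fold change of 1.96 (adjusted p = 0.00112, SE 0.243), so these related inhibitors lay on opposite sides. *Apcdd1*, a membrane-bound Wnt inhibitor, was at 116 ± 30.1 and 14.5 ± 1.84 CPM (adjusted p = 6.87e-05). Of 16 Wnt antagonists 9 were tested, 3 were higher in the small intestine and 1 was in the colon, and the median log2 fold change was 0.43.

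BMP ligands favour differentiation of the epithelium over stem cell renewal. Of 15 listed, 10 were tested, 1 was higher in the small intestine and 2 were in the colon, and the median log2 fold change was −0.77. *Bmp5* was at 109, 111 and 90.2 CPM in the small intestine against 353, 495 and 390 CPM in the colon, a log2 fold change of −2 (adjusted p = 1.71e-04, SE 0.184). *Bmp7* was at 12.6 ± 0.984 and 46.2 ± 3.6 CPM (adjusted p = 7.14e-04). Each colonic library was above each small intestinal one for both genes. *Gdf6* was the exception, with 109, 67.5 and 50.1 CPM in the small intestine against 0, 1 and 4 counts in the colonic libraries (log2 fold change 9.51, SE 0.617, adjusted p = 2.17e-05). *Bmp4* was at 988 ± 32.8 and 1755 ± 176 CPM with an adjusted p of 0.00704, below the fold threshold at a log2 fold change of −0.84.

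Among BMP antagonists, of 11 listed and 10 tested, 1 was higher in the small intestine and 0 were in the colon, with a median log2 fold change of 1.1. *Grem1*, the antagonist best known for keeping the crypt base free of BMP signal, was at 1239, 996 and 881 CPM in the small intestine against 184, 508 and 489 CPM in the colon. The groups did not overlap, but the log2 fold change of 1.39 (adjusted p = 0.0316, SE 0.335) was below the fold threshold, and it passed without colonic replicate 2 (1.61, adjusted p = 0.0309) or 3 (1.58, adjusted p = 0.0466). Colonic CD81+ FB had 1677 to 2272 CPM of *Grem1*.

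Growth factors that act on the epithelium were higher in colonic CD90+ FB where they differed. Of 22 listed 20 were tested, and 0 were higher in the small intestine and 3 were in the colon (median log2 fold change −0.22). *Fgf10* (chr13:118669791-118792115), a ligand of the epithelial receptor Fgfr2b, was at 15.7, 19.7 and 16.7 CPM in the small intestine against 109, 140 and 131 CPM in the colon. The spread within each population was small beside the difference, a log2 fold change of −2.87 (adjusted p = 3.29e-05, SE 0.2). *Hgf*, the ligand of the receptor Met, was at 57.3 ± 5.97 and 176 ± 13.1 CPM, a log2 fold change of −1.63 (adjusted p = 3.06e-04, SE 0.163). *Nrg1*, a ligand of ERBB receptors, had 5, 11 and 3 counts in the small intestinal libraries and 6.78, 14.3 and 8.64 CPM in the colonic ones (adjusted p = 0.00271).

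Factors for vessels, lymphatics and nerve fibres were also unevenly shared. Of 29 listed 27 were tested, 5 were higher in the small intestine and 1 was in the colon, and the median log2 fold change was 0.19. *Angptl1*, a secreted angiopoietin-like protein, was at 169, 139 and 167 CPM in the small intestine against 0.141, 0.543 and 1.79 CPM in the colon, a log2 fold change of 7.65 (adjusted p = 4.17e-05, SE 0.565). *Slit2*, a guidance cue for axons and vessels, was at 174 ± 67.5 and 4.45 ± 1.64 CPM (log2 fold change 5.28, SE 0.374, adjusted p = 3.40e-05). *Vegfd*, a growth factor for lymphatic vessels, was at 106 ± 22.6 and 30.1 ± 3.72 CPM (adjusted p = 8.00e-04), and colonic CD81+ FB, with 297, 313 and 147 CPM, were above both. *Sema3a*, which repels axons, was the gene higher in the colon, at 7.51 ± 0.896 CPM in the small intestine against 82.6, 30.3 and 48 CPM in the colonic libraries (adjusted p = 0.00121).

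Several genes through which stromal cells address leukocytes were higher in the small intestine. Of 36 chemokine and scavenger receptor genes 27 were tested, 4 were higher in the small intestine and 1 was in the colon (18.5% called, median log2 fold change −0.02). Of 34 cytokine and lymphoid-support genes 31 were tested, 2 were higher in the small intestine and 1 was in the colon (9.68% called, median 0.07). Of all genes tested 3.49% were called, and by its median neither list leaned to one side. The 4 include *Cxcl13*, whose call was lost when single libraries were left out. *Ackr4* (chr9:104084157-104126933), a receptor that removes the chemokines CCL19, CCL21 and CCL25, was at 463, 408 and 379 CPM in the small intestine against 2.73, 18.1 and 37.3 CPM in colonic CD90+ FB. The difference was a log2 fold change of 4.42 (adjusted p = 0.00395, SE 0.693), and colonic CD81+ FB had 355, 641 and 433 CPM. *Il33*, an alarmin, was at 188 ± 17.2 and 30.4 ± 17.1 CPM (log2 fold change 2.62, SE 0.388, adjusted p = 0.00299), with 216 ± 23.6 CPM in colonic CD81+ FB. For both genes the colonic sort apart from CD90+ FB was thus in or near the small intestinal range. *Tnfsf13b*, which encodes the B cell survival factor BAFF, was the cytokine gene higher in CD90+ FB, with 43.5, 48.6 and 29.1 CPM in the small intestine against 206, 182 and 141 CPM in the colon (adjusted p = 4.71e-04). *Cxcl10*, an interferon-induced chemokine, was at 55.5 ± 7.17 and 16.2 ± 5.87 CPM (adjusted p = 0.0042).

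In the main test complement genes were called in one direction only. Of 28 listed 18 were tested, and 4 were higher in the small intestine and 0 were in the colon, and the median log2 fold change was 1.22. *C3* (chr17:57203970-57228136), the central protein of the cascade, was at 10783, 9913 and 6123 CPM in the small intestine against 583, 1590 and 707 CPM in the colon. The lowest small intestinal library was above the highest colonic one, with a log2 fold change of 3.21 (adjusted p = 8.94e-04, SE 0.386), and colonic CD81+ FB had 7266 to 15554 CPM. *C7*, a part of the membrane attack complex, was at 539, 391 and 283 CPM in the small intestine against 2.59, 1.99 and 8.12 CPM in the colon (log2 fold change 6.58, SE 0.529, adjusted p = 6.87e-05). *C4b* was at 2202 ± 308 and 581 ± 320 CPM (adjusted p = 0.00625). *Cfb* was at 164 ± 36.3 and 36.8 ± 13.3 CPM, but 75.5% of its 31-base stretches are shared with other genes, so that its share of reads is uncertain. *Cd55*, an inhibitor of the cascade on the cell surface, was at 480 ± 59.8 and 1204 ± 67.1 CPM with an adjusted p of 7.14e-04. Its log2 fold change of −1.33 was below the fold threshold. Against the mean of colonic CD90+ and CD81+ FB it was called, toward the colon.

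Interferon-induced genes and class I antigen presentation leaned to the small intestine. Of 39 interferon-induced genes, all tested, 8 were higher in the small intestine and 0 were in the colon. The median log2 fold change was 1.19, and 38 of the 39 had a positive value. *Iigp1*, a GTPase of cell-autonomous defence, was at 270, 84.3 and 91.8 CPM in the small intestine against 24.8, 20 and 20 CPM in the colon, a log2 fold change of 2.78 (adjusted p = 0.00303, SE 0.415). Small intestinal replicate 1 had the highest level of this gene, and likewise of *Igtp*, with 171 CPM against 62.3 and 73.8 CPM. Without that library the log2 fold change of *Igtp* was 1.45 and it was no longer called.

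Of 22 genes of MHC and antigen processing, all tested, 3 were higher in the small intestine and 0 were in the colon (median log2 fold change 0.93). *H2-Q7*, a non-classical class I gene, was at 205, 239 and 204 CPM in the small intestine against 43, 43.2 and 44.5 CPM in the colon. The libraries of each population were nearly level, and the log2 fold change was 2.3 (adjusted p = 3.29e-05, SE 0.16). The classical gene *H2-D1* was at 828 ± 91.5 and 241 ± 84.3 CPM (adjusted p = 0.00166). *H2-K1* was at 924 ± 87.3 and 314 ± 113 CPM, and its log2 fold change was 1.55. Its call was lost without small intestinal replicate 1 (1.47), colonic replicate 1 (1.49) or colonic replicate 3 (1.34). *B2m*, the light chain of all these proteins, was at 3244 ± 511 and 1345 ± 460 CPM with a log2 fold change of 1.26, below the fold threshold, and passed it without colonic replicate 2 (1.54).

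Most collagen genes were not called. Of 44 collagen genes 40 were tested, 4 were higher in the small intestine and 5 were in the colon, and the median log2 fold change was 0.34. All 4 genes higher in the small intestine encode collagen VI chains. Of these, *Col6a5* was at 343, 324 and 452 CPM in the small intestine against 8.99, 33.4 and 25.6 CPM in the colon (log2 fold change 4.03, SE 0.422, adjusted p = 3.99e-04), and *Col6a3* was at 3400 ± 517 and 837 ± 94.8 CPM (log2 fold change 2.01, SE 0.177, adjusted p = 1.29e-04), with 4085 ± 646 CPM in colonic CD81+ FB. Those higher in the colon included *Col4a5* and *Col4a6*, the neighbouring X-linked genes of basement membrane chains, at 21.2 ± 6.52 and 93.8 ± 15.6 CPM and at 6.54 ± 0.634 and 42.6 ± 8.77 CPM. *Col12a1*, a collagen on the surface of fibrils, was at 411, 477 and 628 CPM in the small intestine against 2161, 2245 and 2229 CPM in the colon, a log2 fold change of −2.14 (adjusted p = 1.10e-04, SE 0.183). *Col24a1*, a minor fibrillar collagen, was at 4.15 ± 1.32 and 33.7 ± 13.7 CPM (adjusted p = 0.00166). *Col1a1*, of the main fibrillar collagen, was at 36642, 14800 and 24293 CPM and 9327, 7939 and 12068 CPM, with a log2 fold change of 1.36, below the fold threshold. Without small intestinal replicate 2 it was 1.64 (adjusted p = 0.00989), and without colonic replicate 3 it was 1.55 (adjusted p = 0.0342).

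Among 60 elastic fibre and matricellular genes 56 were tested, and 7 were higher in the small intestine and 5 were in the colon, with a median log2 fold change of 0.12. *Ccn2* (chr10:24595442-24598683), which encodes connective tissue growth factor, was at 34.6, 40.6 and 37.4 CPM in the small intestine against 509, 529 and 455 CPM in the colon. The libraries within each population were close to level, and the log2 fold change was −3.73 (adjusted p = 3.50e-06, SE 0.165). *Postn*, which encodes periostin, was at 988, 484 and 866 CPM in the small intestine against 7508, 8020 and 8326 CPM in the colon (log2 fold change −3.36, SE 0.258, adjusted p = 5.58e-05). *Hmcn1*, which encodes hemicentin, was at 568, 580 and 728 CPM in the small intestine against 42.3, 35.3 and 27.3 CPM in the colon (log2 fold change 4.16, SE 0.212, adjusted p = 4.91e-06). *Smoc2*, of the SPARC family, was at 29.8 ± 11.9 and 0.292 ± 0.238 CPM (adjusted p = 1.26e-04), and *Nid2*, a linker of basement membranes, at 114 ± 37 and 31 ± 5.14 CPM (adjusted p = 0.00192).

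Of 14 small leucine-rich proteoglycans 11 were tested, with 1 higher in each population and a median log2 fold change of 0.45. Of 45 matrix proteases and their inhibitors 40 were tested, 4 were higher in the small intestine and 1 was in the colon (median 0.07). The heparanase genes parted here. *Hpse*, the active enzyme that cleaves heparan sulfate, was at 34.8 ± 3.38 CPM in the small intestine against 146 ± 23.3 CPM in the colon (log2 fold change −2.07, SE 0.188, adjusted p = 1.57e-04). *Hpse2*, a relative without that activity that can inhibit it, was at 192, 224 and 173 CPM in the small intestine against 5.51, 14.8 and 8.83 CPM in the colon (log2 fold change 4.33, SE 0.344, adjusted p = 6.61e-05). Each heparanase gene was thus high where the other was low.

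Of 17 genes of prostaglandin synthesis and receptors 16 were tested, 1 was higher in the small intestine and 2 were in the colon (median log2 fold change −0.26). *Ptgs2*, which encodes the inducible cyclooxygenase COX-2, was at 15.6, 18.2 and 17.8 CPM in the small intestine against 63.5, 38.9 and 89.9 CPM in the colon (log2 fold change −1.90, SE 0.298, adjusted p = 0.00391). Of 10 IGF axis genes 9 were tested, and only *Igfbp3*, a binding protein for IGFs, was called, at 108, 230 and 195 CPM in the small intestine against 716, 1761 and 769 CPM in the colon (adjusted p = 0.00295). Of 27 immediate early genes, all tested, 0 were higher in the small intestine and 2 were in the colon (median −0.01), and of 17 heat shock genes, all tested, none was called (median −0.05). These lists include genes that cell isolation can induce. Of 5 sex-linked genes the 4 on the Y chromosome were tested and none was called (median −0.44). *Xist* was not among the genes in the deposited data. These values do not show that the sexes had equal shares in the populations.

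Outside the lists, several genes were close to absent from one population. Toward the small intestine these included *Vwc2*, a secreted BMP modulator, with 161, 108 and 142 counts against 0 in every colonic library (at least 77.3-fold), *Chrm3*, a muscarinic acetylcholine receptor, with 162, 143 and 111 counts against 0, 0 and 1 (at least 77-fold), and the receptor tyrosine kinase *Alk*, with 54, 37 and 29 counts against 0 (at least 22.2-fold). Toward the colon they included *Aldh3a1*, an aldehyde dehydrogenase, with 54, 34 and 50 counts against 0 (at least 9.01-fold), and *Eya4*, a transcriptional co-activator, with 355, 92 and 42 counts against 0, 2 and 0 (at least 28.9-fold). *Cd109*, a GPI-anchored co-receptor of TGF-β, was at 0.46 ± 0.252 CPM in the small intestine against 56.1 ± 9.59 CPM in the colon (log2 fold change −6.95, SE 0.383, adjusted p = 8.07e-06). *Myo16*, an unconventional myosin, was at 0.268 ± 0.234 and 39.7 ± 19.9 CPM (adjusted p = 1.54e-04). *Gm28661* and *Gm45713* were also near 0 in the colon, but 100% and 98.1% of their 31-base stretches occur in other genes, mostly in mt-Co2 and Rpl13a, so that their levels are uncertain.

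**Figure D2:**
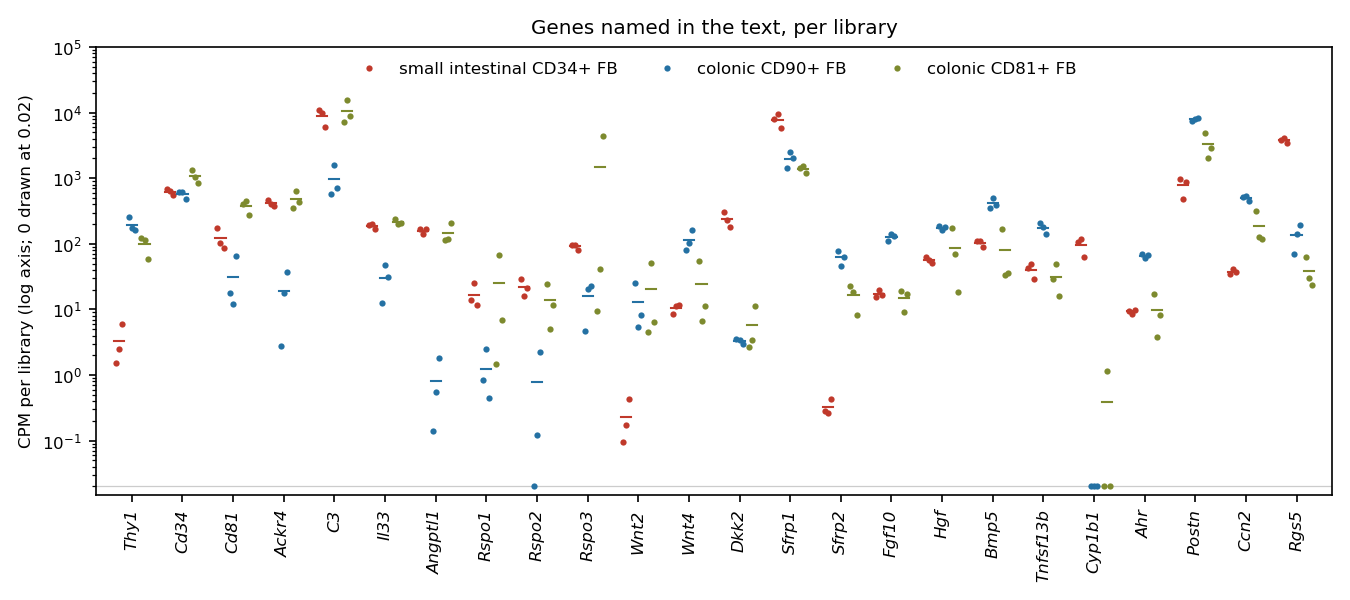
Level in CPM (log axis, values of 0 drawn at 0.02) of genes named in the text in each library of small intestinal CD34+ FB (red), colonic CD90+ FB (blue) and colonic CD81+ FB (green), with a dash at each mean of 3. *Ackr4* and *C3* of colonic CD81+ FB, at 476 and 10567 CPM on average, lie near the small intestinal libraries, whereas *Dkk2* and *Cyp1b1*, at 5.77 and 0.389 CPM, lie with the colonic CD90+ FB.

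*Rgs5* (chr1:169655501-169695813), a regulator of G protein signalling best known as a pericyte marker, was at 3830, 4076 and 3429 CPM in small intestinal CD34+ FB and 70.4, 141 and 192 CPM in colonic CD90+ FB. The log2 fold change was 4.80 (adjusted p = 4.17e-05, SE 0.35). Of 10 pericyte markers 9 were tested and *Rgs5* was the only one called. The list summed to 4120, 4400 and 3740 CPM in the small intestinal libraries and 356, 422 and 472 CPM in the colonic ones. *Rgs5* was its most abundant gene per length. It made up most of each small intestinal sum and the smaller part of each colonic one. *Esam*, which defines the pericyte gate, was near 0 in all 6 libraries. In sorted pericytes *Rgs5* was at 30724 ± 8526 CPM in the small intestine against 32958 ± 7836 CPM in the colon. The part of pericyte RNA in the *Rgs5* difference was not tested.

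Markers of the other fibroblast subsets were summed in the same way. Of 17 adventitial CD81+ FB markers, all tested, *Ackr4* and *C3* were higher in the small intestine and *Anxa3* in the colon. The sum was 15320, 14031 and 9667 CPM in the small intestine against 4018, 5390 and 4280 CPM in the colon, with *C3* the most abundant per length, and 19710 CPM on average in colonic CD81+ FB. *C3* gave 10783, 9913 and 6123 CPM of the small intestinal sums and 583, 1590 and 707 CPM of the colonic ones. Most of the difference between the sums was thus that of *C3*. Of 9 PDGFRα hi FB markers, all tested, 4 were higher in colonic CD90+ FB, namely *Foxl1*, *Bmp7*, *Bmp5* and *Nrg1*, and the sum was 821, 837 and 1041 CPM against 1385, 1639 and 1689 CPM. In sorted PDGFRα hi FB this sum was 8027 CPM in the small intestine against 8018 CPM in the colon. Of 9 Fgfr2+ FB markers 8 were tested, 3 were higher in the small intestine and 1 was in the colon, and the sum was 7439, 6500 and 7254 CPM against 3103, 3760 and 3171 CPM. The 7 pericryptal markers summed to 4094, 4530 and 5048 CPM against 3627, 4073 and 4119 CPM. *Hmcn2*, called toward the small intestine, gave 2256, 2561 and 2850 CPM of these against 540, 743 and 467 CPM. It differed by more than the sums did, so the rest of the list together leaned to the colon, where *Thy1* was called. The part of these subsets in the differences above was not tested.

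Markers of cells outside the gates were summed as well. Smooth muscle markers summed to 598, 606 and 603 CPM in the small intestine against 311, 414 and 414 CPM in the colon, with none of 10 called and *Acta2* the most abundant per length, against 32486 CPM in sorted small intestinal smooth muscle cells. *Acta2* itself went the other way from the sum, without overlap, at a log2 fold change of −0.65 (adjusted p = 0.151). Of 16 epithelial markers 3 were tested, none was called and 6 had 0 counts in all 6 libraries, among them *Epcam*, and the sum was 8.3, 10.3 and 11 CPM against 20, 13 and 4.99 CPM. Endothelial markers summed to 93, 92.3 and 78.5 CPM against 73.9, 73 and 103 CPM, with none of the 6 tested called. Immune markers summed to 29.5, 35.1 and 37.7 CPM against 17.8, 32.4 and 21.6 CPM, with 1 of the 7 tested called. Markers of lymphoid-tissue stroma summed to 115, 125 and 33.2 CPM in the small intestine against 13.4, 28.4 and 28.8 CPM in the colon, with *Cxcl13* the most abundant per length and the only one of the 4 tested that was called, toward the small intestine (log2 fold change 2.03, adjusted p = 0.0343). That call was lost without small intestinal replicate 1 or 2, with log2 fold changes of 1.80 and 1.74 (adjusted p = 0.129 and 0.151). It was also lost without colonic replicate 1 or 3, with log2 fold changes of 1.71 and 2.18 (adjusted p = 0.0696 and 0.0664). Markers of interstitial cells of Cajal summed to 28.9, 25.6 and 25.9 CPM against 52.8, 60.4 and 60.2 CPM, without overlap. None of the 5 tested for glia and neurons, interstitial cells of Cajal and mesothelium was called, nor was the 1 tested for red blood cells.

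Against the colonic CD81+ FB, also a CD34+ sort, small intestinal CD34+ FB differed in 92 of 15262 genes (0.603%). The small intestinal libraries are shared between the comparisons, so their values are only set side by side. The biological coefficient of variation was 0.200 within small intestinal CD34+ FB, 0.401 within colonic CD90+ FB and 0.685 within colonic CD81+ FB, so the counts were not made at equal precision. *Dkk2* had a log2 fold change of 6.15 against CD90+ FB and 5.37 against CD81+ FB, *Hoxa13* had 0 counts in the small intestine in both, and *Rgs5* had 4.80 and 6.59. *Ackr4* had 4.42 and −0.21, *C3* had 3.21 and −0.25, and *Il33* had 2.62 and −0.21. *Angptl1* had 7.65 and 0.10, and *Fgf10* had −2.87 and 0.19. *Ahr* had −2.82 and −0.06. The mean of colonic CD81+ FB also lay within the small intestinal libraries, or beyond them on the side away from CD90+ FB, for *Bmp5*, *Cilp*, *Col12a1*, *Col24a1*, *Cxcl10*, *Foxl1*, *Hoxb3*, *Hpse*, *Nr2f1* and *Tnfsf13b*. Single CD81+ libraries did not all lie so. *Hoxb3* was at 128, 44.9 and 38.4 CPM in them against 59.6, 79.3 and 47.7 CPM in the small intestine. *Bmp5* was at 171, 33.1 and 35.5 CPM against 109, 111 and 90.2 CPM, with replicate 1 on the CD90+ side. For *Cilp* and *Nr2f1* every CD81+ library lay beyond the small intestinal ones. The genes named thus fell on both sides. Some were far from both colonic sorts and some, by the CD81+ mean, far from CD90+ FB only.

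PDGFRα hi FB and Fgfr2+ FB were sorted from both organs and share no library with the pair. Their gates also differed between organs. The PDGFRα hi FB were PDGFRα hi CD34- cells in the small intestine and PDPN+ CD34- cells in the colon, and the Fgfr2+ FB were PDGFRα int CD34- cells in the small intestine and PDPN hi CD34+ CD90- cells in the colon, with *Cd34* at 86.5 and 497 CPM. Organ and gate thus change together in these pairs as well, and in the differences between pairs. The small intestinal and colonic PDGFRα hi FB differed in 406 of 14558 genes (2.79%), and the Fgfr2+ FB in 251 of 14099 (1.78%). The biological coefficient of variation was 0.443 in small intestinal and 0.412 in colonic PDGFRα hi FB, and 0.629 and 0.521 in the Fgfr2+ FB. These counts too were thus not made at equal precision. Small intestinal Fgfr2+ replicate 3, which is also in the test between pairs below, had 2245052 counts in total against 15098412 in replicate 1. Of the 544 genes, 113 differed in the same direction in PDGFRα hi FB, which is 20.8% of the 544 and 27.8% of the 406, and 74 in Fgfr2+ FB, which is 13.6% of the 544 and 29.5% of the 251. In all 3 pairs 42 genes were called in the same direction, 23 toward the small intestine and 19 toward the colon. Those higher in the small intestine include *Cyp1b1*, *Angptl1*, *C7*, *Col6a5*, *H2-Q7*, *Hmcn1*, *Hpse2*, *Rgs5*, *Hoxb3*, *Hoxc4* and *Hoxc8*, and those higher in the colon *Hoxa13*, *Hoxd13*, *Hoxa11*, *Hoxd11*, *Isl1*, *Pitx1*, *Ccn2*, *Cd109* and *Postn*. *Cyp1b1*, for example, had 26.9 ± 9.94 CPM in the PDGFRα hi FB of the small intestine, 84.8 ± 41.2 CPM in its Fgfr2+ FB, and had at most 1 count in any library of the colonic counterparts.

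Some genes differed in opposite directions. In PDGFRα hi FB 12 of the 544 were called the other way, among them *C3*, *Rspo1* and *Sfrp1*, and in Fgfr2+ FB 4, which were *Adh1*, *Cilp*, *Mgp* and *Adcyap1r1*, named after their values were seen. The calls of *Adh1*, *Cilp* and *Mgp* in CD34+ against CD90+ FB were lost without small intestinal replicate 1, with log2 fold changes of 1.28, 2.16 and 1.42 and an adjusted p of 0.137 for *Cilp*. That of *Cilp* was also lost without small intestinal replicate 2 or 3 or colonic replicate 2, and that of *Mgp* without colonic replicate 1. The difference between organs in CD34+ against CD90+ FB was tested against the mean of the same difference in the PDGFRα hi and Fgfr2+ pairs, in 1 model of 18 libraries. Of 16745 genes tested 177 (1.06%) passed, 143 with a difference more towards the small intestine in CD34+ against CD90+ FB and 34 with one more towards the colon. Without small intestinal CD34+ replicate 1 the 177 fell to 117. Of the 177, 55 were also among the 544.

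*C3* had log2 fold changes of 3.21 in CD34+ against CD90+ FB, −1.88 in PDGFRα hi FB and −1.75 for the Fgfr2+ FB, a difference of 5.04 (adjusted p = 3.00e-04, SE 0.666). *Dkk2* had 6.15, 0.06 and 0.93, a difference of 5.68 (adjusted p = 5.23e-04, SE 0.797), and *Rspo1* had 3.73, −3.51 and −2.23, a difference of 6.60 (adjusted p = 0.00238, SE 1.11). These genes were thus called toward the small intestine in CD34+ against CD90+ FB, and in the other pairs their log2 fold changes were at most 0.93. *Wnt4* had −3.48, 0.31 and 0.86, a difference of −4.04 (adjusted p = 1.08e-04, SE 0.486), *Hgf* had −1.63, −0.10 and 1.09, a difference of −2.10 (adjusted p = 0.009, SE 0.408), and *Tnfsf13b* had −2.13, 1.46 and 0.74, a difference of −3.21 (adjusted p = 5.74e-04, SE 0.457). The last 3 were called toward the colon in CD34+ against CD90+ FB, and in the other pairs none of their log2 fold changes was below −0.10. *Postn* was lower in the small intestine in all 3 pairs but least so here, with −3.36, −7.09 and −5.60. *Pitx1* had −3.15 here, and in the other small intestinal subsets no library had more than 1 count, so the size of its difference (8.82, SE 0.664) depends on how 0 is fitted. *Igfbp6* likewise had 0 counts in both other small intestinal subsets, and 16.3, 14.7 and 13.8 CPM in small intestinal CD34+ FB.

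**Figure D3:**
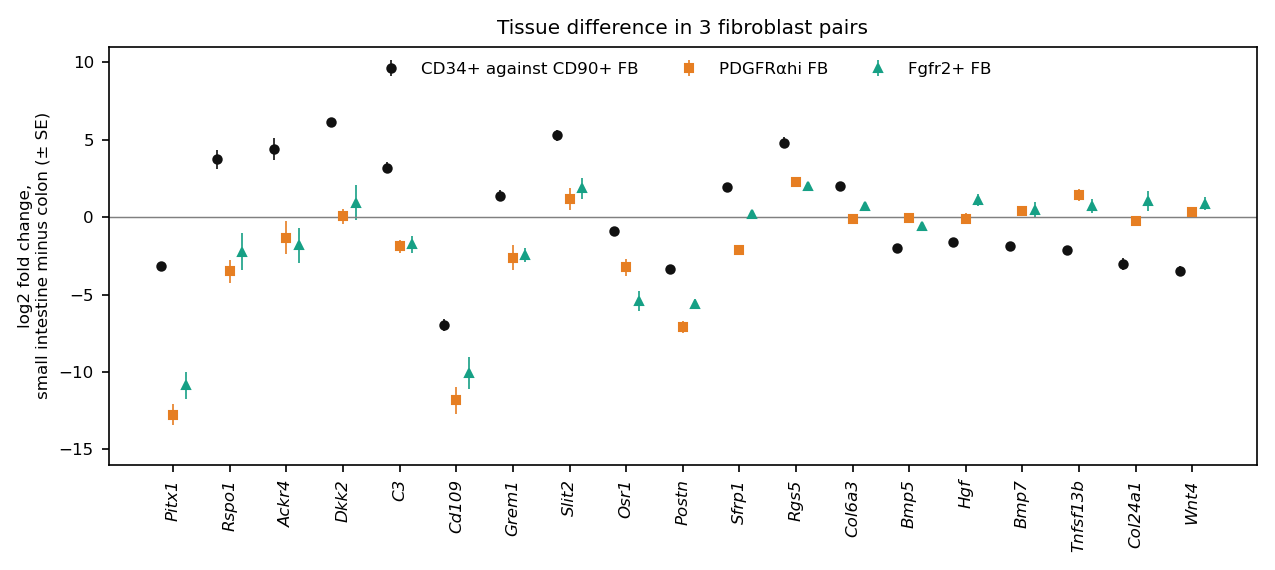
Log2 fold change, small intestine minus colon, with SE as bars, in CD34+ against CD90+ FB (circles), PDGFRα hi FB (squares) and Fgfr2+ FB (triangles), for genes whose difference between organs differed between the first pair and the others. *C3* stands at 3.21 in the first pair and at −1.88 and −1.75 in the others, and *Wnt4* at −3.48 against 0.31 and 0.86.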

How the data were processed

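The authors checked reads with FastQC 0.11.2, trimmed them with Trim Galore 0.4.0 and quantified transcripts with kallisto 0.42.5. They deposited, for 98492 transcripts in each of 30 libraries, an estimated count (reads assigned to a transcript, with reads that fit several transcripts divided among them, not normalized) and a TPM. The deposited TPM is scaled to a common total per library and was used only in an alternative. The transcript set is not given in the sources used here. Of the transcripts, 97116 could be assigned, through their Ensembl identifiers, to 32342 genes (GENCODE M21, GRCm38), and the estimated counts of a gene's transcripts were added up and rounded to whole numbers.

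A gene needed 6 counts in 3 or more libraries of a fit and was tested with edgeR 4.0.16 (R 4.3.3, TMM normalization, quasi-likelihood test). The thresholds, which are those the study states for comparing tissues, were 0.05 for the p adjusted by Benjamini-Hochberg and 1.5 for the size of the log2 fold change. SE was computed from the size of the log2 fold change and the F statistic, as their ratio after taking the root of F. Where no library of a population had more than 3 counts, the fold is given as at least the value that 3 counts per library would yield, which covers counting error only. The log2 fold changes of such genes depend on the prior count and are not bounds. Genes sharing at least 50% of their 31-base stretches with other genes are described as uncertain.

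Genes were named from the 15 called genes with the largest change in each direction whose populations did not overlap, the sorting proteins, the called and most abundant members of the lists, and the 5 largest differences between pairs in each direction. Not all are named. The members and the lists were chosen with earlier results of these data known. Alternatives were DESeq2 1.42.0, other normalizations, filters, fold thresholds and colonic groups, length-scaled TPM counts, a replicate block, all 30 libraries in 1 model, and each library left out. Both fits were also run on simulated data, and no result given here rests on those runs.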

Additional observations from a re-analysis of the deposited data

Results flagged for a closer look

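The difference between organs in CD34+ against CD90+ FB was tested against the mean of that difference in the PDGFRα hi and Fgfr2+ pairs, and the named genes that passed are given here as the difference of log2 fold changes, small intestine minus colon. Those more towards the small intestine in CD34+ against CD90+ FB included the adventitial marker genes *Ackr4* (6.04, SE 1.22, adjusted p = 0.0119), *C3* (5.04), *Cd81* (5.72) and *Grem1* (3.94, SE 0.67, adjusted p = 0.00277). *Grem1* had a log2 fold change of 1.39 here, −2.62 in the PDGFRα hi pair and −2.44 in the Fgfr2+ pair. Among Wnt pathway genes the values were 6.60 for *Rspo1*, 5.68 for *Dkk2*, 2.93 for *Sfrp1* and 2.2 for *Wnt2b*. Among transcription factors they were 8.82 for *Pitx1* and 3.43 for *Osr1*. Matrix genes in this direction were *Cilp* (6.54), *Postn* (3.01), *Col1a1* (2.05), *Mgp* (1.78) and *Col6a3* (1.73). Others were *Adh1* (5.1), *Slit2* (3.77), *Adcyap1r1* (3.53) and *Rgs5* (2.69, SE 0.373, adjusted p = 4.85e-04). *Igfbp6* (9.82) and *Cd109* (4.17) also passed, but with at most 1 count in any library of the other small intestinal subsets, as for *Pitx1*, so that the sizes of their differences depend on the prior count. *Gm28661* had 11.28, but its reads cannot be told apart from those of mt-Co2.

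Those more towards the colon were *Sfrp2* (−6.22, SE 1.39, adjusted p = 0.0274), *Wnt4* (−4.04), *Col24a1* (−3.38), *Tnfsf13b* (−3.21), *Bmp7* (−2.31), *Hgf* (−2.10) and *Bmp5* (−1.68). In PDGFRα hi FB *Sfrp2* was at 0, 0.38 and 4.76 CPM in the small intestine and 0, 0.787 and 0.544 CPM in the colon. The size of its difference is thus uncertain. In Fgfr2+ FB its mean was also lower in the small intestine, at 0.23 against 7.01 CPM. *Bmp7* had a log2 fold change of −1.88 here, 0.42 in the PDGFRα hi pair and 0.47 in the Fgfr2+ pair.

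In the TPM values, used in an alternative only, a single transcript without a matched gene held up to 55.9% of a library's total in small intestinal CD34+ FB, the highest of the 3 libraries, which ranged upwards from 53.8%. In colonic CD90+ FB the range was 27.8% to 42.5%. This share differs between the populations compared, and its part in the results was not tested.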

How the results depend on the processing

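The total of 544 genes, 325 for the small intestine and 219 for the colon, was within 1.5 times of itself with DESeq2 (727), RLE (537) or upper-quartile (544) normalization, no low-count filter (595), 10 counts in every library of a population (605) and length-scaled TPM counts (445). With the replicate block it was 572, which include 494 of the 544, but libraries of the same number did not go together between organs. With no fold threshold 1327 genes passed (711 and 616), with a log2 threshold of 1 877 (503 and 374), and with one of 2 378 (236 and 142). Against the mean of colonic CD90+ and CD81+ FB 192 were called (132 and 60), against that mean with Fgfr2+ FB added 211 (148 and 63), and with all 30 libraries in the model 62 (37 and 25). The cause was not tested.

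Leaving out single libraries gave totals of 293 to 634, with 144 to 426 for the small intestine and 130 to 222 for the colon. There the filter itself removed genes present in 1 population only. With genes kept at 6 counts in 2 libraries, chosen after seeing the data, totals were 306 to 649, with 164 to 409 and 128 to 247. In the latter, small intestinal replicates 1, 2 and 3 left out gave 313, 306 and 332 (164, 178 and 194 for the small intestine, 149, 128 and 138 for the colon). The 177 genes that differed between pairs became 386 with DESeq2, 342 against Fgfr2+ FB alone, 183 with the replicate block and 117 to 135 with single libraries left out.

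Of the 89 called genes named, DESeq2 kept 89, the mean of colonic CD90+ and CD81+ FB kept 44 and the model of all 30 libraries 37. Both lost *Hoxc10*, *Hoxb3*, *Hoxb7*, *Pitx1*, *Msc*, *Foxl1*, *Nr2f1*, *Tiparp*, *Adh1*, *Rxra*, *Wnt9a*, *Rspo3*, *Rspo1*, *Rspo2*, *Bmp7*, *Fgf10*, *Hgf*, *Nrg1*, *Vegfd*, *Il33*, *Tnfsf13b*, *Cxcl10*, *Cfb*, *Igtp*, *Col4a5*, *Col4a6*, *Col24a1*, *Hpse*, *Ptgs2*, *Igfbp3*, *Aldh3a1*, *Eya4*, *Gm45713*, *Cilp*, *Mgp*, *Adcyap1r1* and *Hmcn2*. The mean alone also lost *Ahr*, *Wnt4*, *Bmp5*, *Ackr4*, *C3*, *Col6a3*, *Col12a1* and *Edil3*, and the model alone *Twist1*, *Lrat*, *Wnt2*, *Sfrp2*, *Sfrp1*, *Apcdd1*, *Sema3a*, *C4b*, *Smoc2*, *Nid2*, *Chrm3*, *Alk*, *Myo16*, *Anxa3* and *Cxcl13*. Length-scaled TPM counts kept 79 (and 399 of the 544), without *Hoxb3*, *Nr2f1*, *Rxra*, *Vegfd*, *C4b*, *Col4a5*, *Col24a1*, *Ptgs2*, *Cilp* and *Cxcl13*. Upper-quartile normalization lost *Nr2f1* only, and no low-count filter lost *Rxra* only. The mean with Fgfr2+ FB also added kept 54. Of its losses only *Smoc2* was not also lost against the mean of colonic CD90+ and CD81+ FB. Reversed directions were all against other colonic means, with CD81+ FB and then also Fgfr2+ FB added: *Cd34* (−0.37, −0.10), *Igfbp5* (0.68, 0.34), *Pi16* (−1.01, −0.69) and *Rspo3* (−0.77, −0.03), and *Tcf21* (0.03) with CD81+ FB only. The cause was not tested. Depth differed between the populations and its effect was not tested.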

Other observations

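A pair of secreted matrix proteins from the marker lists, chosen after their values were seen, also separated the populations. *Edil3* (an integrin ligand with EGF-like repeats) was at 27, 29.1 and 30.9 CPM in small intestinal CD34+ FB and at 234, 295 and 315 CPM in colonic CD90+ FB, and the log2 fold change was −3.29 (adjusted p = 9.28e-06, SE 0.188). *Hmcn2*, the relative of *Hmcn1*, was at 2256, 2561 and 2850 CPM in the small intestinal libraries, which all lay above the 540, 743 and 467 CPM of the colonic ones (log2 fold change 2.13, adjusted p = 2.16e-04). In colonic CD81+ FB *Hmcn2* was at 1386, 2432 and 1678 CPM, and its call was lost against the mean of colonic CD90+ and CD81+ FB, as was that of *Edil3*.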
